A study of Mus spretus with 12 samples.

Results

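Liver RNA of male mice fed p,p'-DDE and given grape must to drink was compared with liver RNA of mice on a control diet. The comparison takes 8 of the 12 arrays of the series, 4 labelled control and 4 labelled as p,p'-DDE plus Pedro Ximenez must (DDE_PXM below), and covers every gene on the array. The mice were of the inbred SPRET/EiJ strain of Mus spretus, aged 20 months at the start and 22 months at sampling, and all groups were kept on their diet for 60 days. Control mice ate Teklad chow with corn oil. DDE_PXM mice ate that chow with p,p'-DDE at 450 mg/kg in corn oil, and their water carried must with 85 mg/L of polyphenols and 31 g/L of sugar, glucose and fructose in equal parts. A group that ate the p,p'-DDE chow without must (DDE, 4 arrays) completes the series, whose title speaks of protection by must against liver injury from p,p'-DDE. No group drank must or sugar without p,p'-DDE, so in DDE_PXM against control the effects of p,p'-DDE, of the must polyphenols and of the sugar cannot be told apart, and DDE is given beside each result for that reason. The design text names 4 mice for control and for DDE_PXM, but nothing ties each array to a single mouse, so p-values speak only of the spread among arrays, possibly a technical one.

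p,p'-DDE is the long-lived breakdown product of the insecticide DDT. Foreign compounds of this kind activate CAR and PXR, nuclear receptors that switch on cytochrome P450 enzymes, conjugating enzymes and export pumps in hepatocytes, while the factor NRF2 switches on glutathione synthesis and other defences against reactive molecules. Sugar reaching the liver is turned into fat by enzymes under the factors SREBP1c and ChREBP, and cholesterol synthesis is set by SREBP2. The liver also makes the acute-phase proteins, such as serum amyloid A, which it secretes in inflammation.

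The measurements rest on probes of 60 letters, and the reading of several large changes depends on where a probe lies and what else it could bind. The first 30 letters are shown for the probes of Cyp2b10, the gene with the largest rise, for those of Kctd13, which disagree, and for Saa1 and Saa2, near-identical genes that fell. Positions are those of the whole probe in the scanner files, on mm9, and the strand is + except where given.
Cyp2b10, chr7:26711522-26711581: cacttatcagctctccatgatctgggatct
Cyp2b10, chr7:26702056-26702115: tcagagattttcagatcttatacctattgg
Kctd13, chr7:134074067-134074126: tggaatcagtttctaacaatgtattagccc
Kctd13, chr7:134085665-134085724: tcagatgacaacttactgaagaacatcgag
Kctd13, chr7:134088875-134088934: gccatctttctcttaccatctgattccctt
Saa1, minus strand, chr7:53996070-53996129: gcagtggcaaagaccccaattactacagac
Saa2, chr7:54009535-54009594: cttcctatctaggaacactgaagatgctct

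Other probes share letters, and their genes cannot be read apart to that extent. The longest run common to the probes of Saa1 and Saa2 is 5 letters, which does not show whether either probe binds both transcripts. The probes of the insulin genes Ins1 and Ins2 share a run of 19 letters, in capitals below, and those of the kallikrein genes Klk1b26 and Egfbp2 share 55 letters, of which 30 are shown in capitals. Klk1b26 and Egfbp2 were picked for this overlap after their values were seen.
Ins1, chr19:52339385-52339444: ATCAGTGCTGCACCAGCATctgctccctct
Ins2, minus strand, chr7:149864655-149864714, letters 31 to 60: tggcattgtagATCAGTGCTGCACCAGCAT
Klk1b26, chr7:51272272-51272331, letters 6 to 35: TGAAAAATGCCTGAGTGTCACATTGTCCCA
Egfbp2, chr7:51272277-51272336: TGAAAAATGCCTGAGTGTCACATTGTCCCA

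Levels below are log2 of the processed signal relative to the 75th percentile of the array, so 0 marks that percentile and a step of 1 is a doubling, and each gene is read from its brightest probe. Between 50.12% and 52.01% of the spots other than controls were well above background, and none was saturated. The processed signal at the 75th percentile itself lay between 492 and 570 on the control arrays and between 692 and 710 on the DDE_PXM arrays, without overlap. The number of arrays limits the precision, and the median SD within groups was 0.109. Calls were made where limma's adjusted p was under 0.05, and rose, fell, higher and lower are used of called genes.

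Expression differed over most of the array. Of 18678 genes tested, 13242 were called between DDE_PXM and control (70.9%), with 5893 higher (31.6%) and 7349 lower (39.3%), and their median fold was 1.45. A change of at least 2-fold was seen for 447 higher genes (2.39%) and 1760 lower genes (9.42%). For 12179 genes (65.2%) the control and DDE_PXM values lay apart without overlap. Against the same controls, DDE alone had 4482 genes higher (24%) and 4921 lower (26.3%), and DDE_PXM against DDE had 3781 higher (20.2%) and 5539 lower (29.7%). The counts given below for gene lists are to be read against these shares of all genes.

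The balance of rises and falls depended on the scaling. The median log2 change of all genes was -0.058, and it was 0.32 when each array was centred on its median. That centring gave 10315 genes higher and 3802 lower, so 73.1% of called genes were higher against 44.5% at the 75th percentile, and quantile normalisation gave 7043 and 6154. A list whose median lies near 0 therefore has no settled direction, and the range of its median over 5 other scalings is given where the sign turned.

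**Figure D1:**
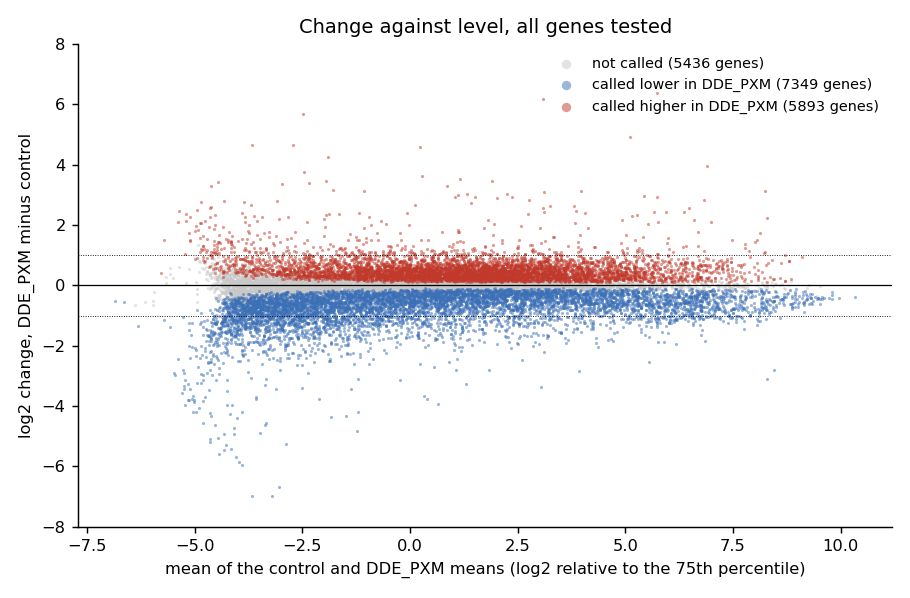
Log2 change from control to DDE_PXM (vertical) against the mean of the control and DDE_PXM means (horizontal, log2 relative to the 75th percentile), with 1 point for each of 18678 genes, coloured by call (adjusted p under 0.05), and dotted lines at a 2-fold change. Blue points, the 7349 genes called lower, reach farther below the dotted line at low levels than elsewhere.

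With scaling to the 75th percentile, falls of at least 2-fold outnumbered such rises at every level. Among 2950 genes with a mean level below -3, whose median change was -0.35, 619 fell and 123 rose as much, and between -3 and -1 the counts were 502 and 85. They were 251 and 75 between -1 and 1, 158 and 75 between 1 and 3, 95 and 40 between 3 and 5, and 135 and 49 above 5. Over all levels, median centring gave 1619 rises and 760 falls of this size, and normexp gave 250 and 858. The split by level was not made under other scalings. On this scale the lowest level well above background was -4.54 to -4.29 on the control arrays. On the DDE_PXM arrays it was -5.02 to -4.78, without overlap. Of the 1760 genes that fell at least 2-fold, 161 were not well above background on any DDE_PXM array, and of the 447 that rose as much, 81 were above background on no control array. Genes without a symbol of their own, such as predicted transcripts, fell at least 2-fold in 16.7% of 5072 cases, against 6.7% of 13606 genes with a symbol. This contrast was not split by level.

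The arrays were labelled liver, and the hepatocyte markers had high levels in both groups, but markers of other tissues were present and differed between groups. The mean of 20 hepatocyte markers was 7.76 to 7.84 on the control arrays and 7.7 to 7.75 on the DDE_PXM arrays. The mean of 32 pancreatic acinar markers was 2.86 to 2.91 in control, 2.64 to 2.72 in DDE and 4.91 to 4.95 in DDE_PXM. The mean of 20 skeletal muscle markers was 3.55 to 3.61 in control, 2.21 to 2.36 in DDE and 1.86 to 1.98 in DDE_PXM. Within control and within DDE_PXM the arrays of a group were close to each other in these lists. In DDE, replicate 1 had a hepatocyte mean of 7.68 against 7.83 on the others. That mean leaves out Alb, which had no value there and was at 9.81 to 9.86 on the other DDE arrays. The hepatocyte means in DDE are thus not over the same genes. The mean of adrenal medulla markers was higher in DDE replicate 1 (-2.63 against -3.21 to -2.94). How much of any gene's change is due to these other tissues was not tested.

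**Figure D2:**
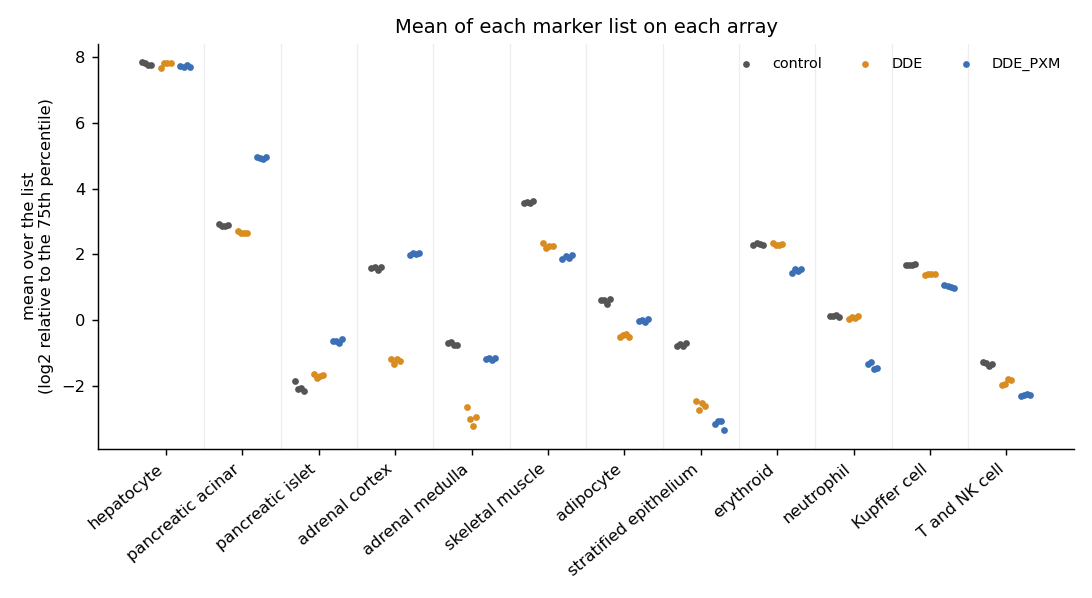
Mean level of each marker list (vertical, log2 relative to the 75th percentile) on each array, with 4 points for each of control, DDE and DDE_PXM. The hepatocyte means lie between 7.68 and 7.84 on all arrays, whereas the pancreatic acinar means of DDE_PXM, 4.91 to 4.95, lie above those of both other groups. The lowest hepatocyte mean, of DDE replicate 1, leaves out Alb, which had no value on that array.

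Pancreatic genes rose in DDE_PXM. Of 32 acinar markers tested, 31 rose and 1 fell, 28 of the rises being at least 2-fold, with a median log2 change of 2.38. The lipase Pnlip was at 4.79, 4.76, 4.75 and 4.6 in control and at 7.17, 7.11, 7.21 and 7.16 in DDE_PXM, a 5.41-fold rise (adjusted p = 7.17e-12). The groups did not overlap, and DDE was lower than both at 4.24 ± 0.0045 (SD, n = 4). The procarboxypeptidase gene Cpa1 rose 7.58-fold, the chymotrypsin-like gene Ctrl 8.56-fold and the lipase-related Pnliprp1 8.8-fold, and each was lower in DDE than in control. Reg2, on the same list, fell 3.94-fold, from -1.88 ± 0.255 to -3.86 ± 0.254. Klk1b26 and Egfbp2, the kallikreins whose probes overlap, rose 5.92-fold and 6.16-fold.

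Islet hormone genes rose as well, in part already in DDE. Of 10 islet markers tested out of 17, 7 rose and 2 fell. Ins2 was at -0.28, -0.16, -0.25 and -0.13 in control and at 2.79, 2.9, 2.74 and 2.93 in DDE_PXM, an 8.25-fold rise (adjusted p = 8.17e-12), and DDE was at 2.2 ± 0.0827. Ins1 rose 7.55-fold, with DDE at 2.36 ± 0.105. The islet genes thus lay in the order control, DDE, DDE_PXM for both insulins, whereas Pnlip, Cpa1, Ctrl and Pnliprp1 were lowest in DDE. With normexp background correction the median of the islet list was 0.41 rather than 1.86.

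Adrenal genes were far apart between the 2 groups fed p,p'-DDE and closer between DDE_PXM and control. Star, which moves cholesterol into mitochondria for steroid synthesis, was at 2.17, 2.16, 2.1 and 2.15 in control, at 3.15, 3.24, 3.15 and 3.18 in DDE_PXM, and at -3.26 ± 0.0488 in DDE. It rose 2.05-fold from control to DDE_PXM (adjusted p = 1.91e-09). Cyp11b1, the last enzyme of glucocorticoid synthesis, rose 2.14-fold and was not well above background on any DDE array. Of 13 adrenal cortex markers 9 rose and 1 fell in DDE_PXM against control, with a median of 0.52, and in DDE against control 1 rose and 10 fell, with a median of -3.07. Of 11 markers of the adrenal medulla 2 rose and 8 fell in DDE_PXM against control, among them Dbh, which makes noradrenaline, at 1.53-fold lower, a call lost with median centring (-0.24, adjusted p = 0.142) and with the deposited values (-0.34, adjusted p = 0.0765).

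Markers of muscle, fat and stratified epithelium fell. All 20 skeletal muscle markers fell at least 2-fold, with a median of -1.72, among them the skeletal actin Acta1 (2.7-fold) and the fast myosin light chain Mylpf (4.58-fold). Of 14 adipocyte markers 11 fell and 1 rose, with a median of -0.66, and the adipocyte protease Cfd was at 4.3 ± 0.0488 in control, 1.78 ± 0.0928 in DDE and 2.73 ± 0.0567 in DDE_PXM. Of 19 markers of stratified epithelium tested out of 25, 15 fell, 12 of them at least 2-fold, and 1 rose, with a median of -1.09. In DDE against control 15 also fell and 1 rose, with a median of -2.54. Krt13, a keratin of such epithelium, and Crct1 were at least 37-fold and at least 36.5-fold lower, as neither was well above background on any DDE_PXM array.

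Single genes changed most among P450 enzymes, pancreatic genes, epithelial genes and neutrophil genes. Counting genes measured above background on every one of the 12 arrays, the 12 largest rises were Cyp2b10, Kctd13, Cyp2b9, Chil1, Cyp2c38, Pnliprp2, Ugt2b35, Cyp2c55, Aqp12, Pnliprp1, Cyp2c37 and Ctrl. Those of Pnliprp2, Aqp12 (a water channel of acinar cells), Pnliprp1 and Ctrl came with the acinar markers above, and none of these 4 was higher in DDE than in control. Among the largest falls were Krtdap, Prtn3, Hsd3b5, Bpifa5, Lor, Rtkn2, Igfbp2, Saa2, Ighg3, S100a9 and Ada.

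**Figure D3:**
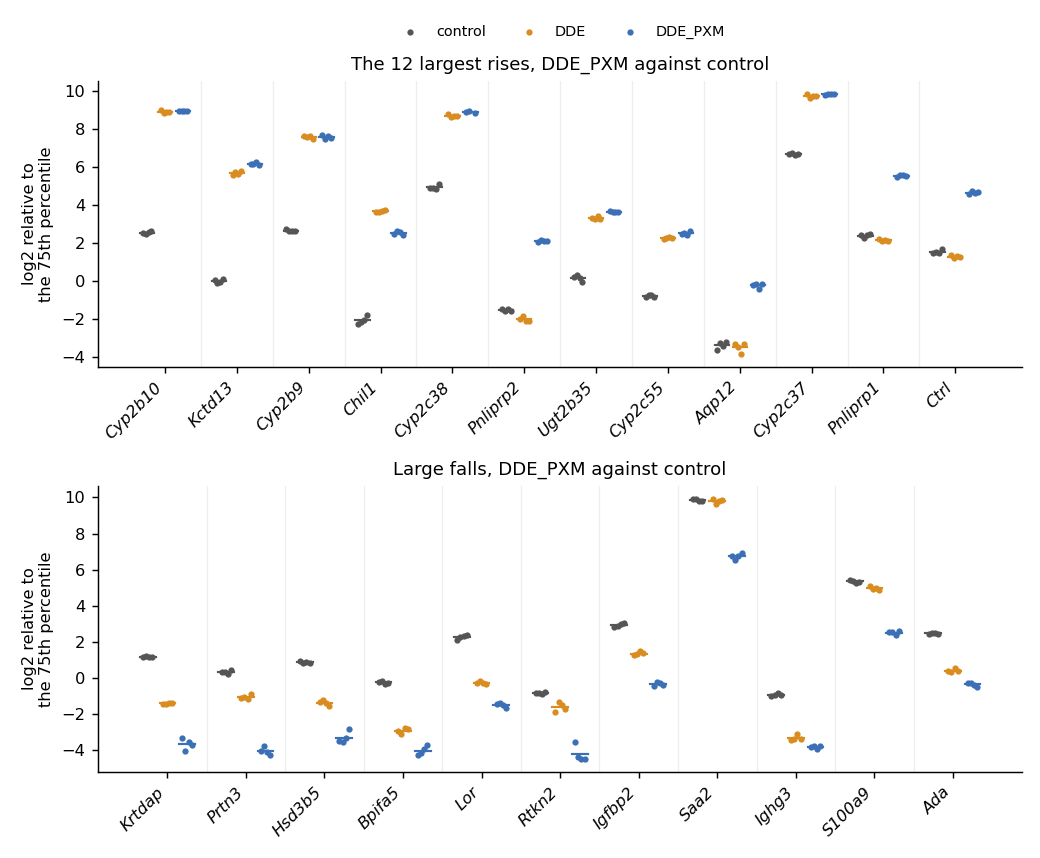
Level on each array (vertical, log2 relative to the 75th percentile) of the 12 genes that rose most and of 11 genes among those that fell most from control to DDE_PXM, each measured above background on every array, with bars at the means of 4 arrays. Cyp2b10 stands near 8.9 in both DDE and DDE_PXM, whereas Pnliprp2, Aqp12, Pnliprp1 and Ctrl are high in DDE_PXM and not in DDE.

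Cyp2b10, the classic target of CAR, was at 2.54, 2.49, 2.56 and 2.62 in control and at 8.92, 8.93, 8.92 and 8.94 in DDE_PXM, an 83.2-fold rise (log2 change 6.38 ± 0.0439 SE, adjusted p = 1.83e-15). Its second probe went from -3.62 to 5.89. The control and DDE_PXM arrays were thus far apart on both probes shown above, and DDE_PXM minus DDE was 0.02 ± 0.0439 (adjusted p = 0.729). Cyp2b9 rose 30.1-fold, and its difference from DDE did not pass either (-0.016 ± 0.0549, adjusted p = 0.828). Cyp2c38 rose 15.5-fold, from 4.93 ± 0.131 to 8.88 ± 0.0598 (n = 3 in DDE_PXM, since 1 spot was marked as an outlier). Cyp2c55 rose 9.8-fold and Cyp2c37 8.84-fold. No control array measured Cyp2c65 or Cyp2c66 well above background, and the rises were at least 26.8-fold for Cyp2c65 and at least 15.3-fold for Cyp2c66.

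Of 38 tested targets of CAR and PXR, 27 rose and 8 fell, with a median of 0.76, and 14 rose at least 2-fold. In DDE against the same controls 29 rose and 6 fell, with a median of 0.77, and between DDE_PXM and DDE 7 were higher and 12 lower, with a median of -0.027. The export pump Abcc3 rose 4.17-fold and was higher than in DDE by 0.44 ± 0.0489 (adjusted p = 2.4e-05). Abcb1a, the drug pump P-glycoprotein, was at 0.65 in control, 1.09 in DDE and 1.7 in DDE_PXM, and its rise over DDE of 0.61 ± 0.0397 passed the test (adjusted p = 3.79e-07). Ces2a, a carboxylesterase, rose 3.19-fold and Cyp2c29 2.84-fold. Cyp3a11, a P450 that responds to PXR, was 1.74-fold higher, as was the epoxide hydrolase Ephx1, by 1.75-fold. Alas1, the first enzyme of heme synthesis, rose 1.69-fold, and Por, which feeds electrons to P450 enzymes, 1.35-fold.

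The 8 targets of CAR and PXR that fell were Cyp2c and Cyp3a genes, and the largest falls were in the Cyp2c family. Cyp2c67 was at 6.71, 6.63, 6.56 and 6.58 in control and at 5.14, 5.11, 5.05 and 5.05 in DDE_PXM, a 2.89-fold fall. Cyp2c68 fell 2.98-fold and Cyp2c69 2.62-fold. DDE lay between the groups for these 3 genes, and DDE_PXM was below DDE by 0.68 ± 0.0443, 0.67 ± 0.0453 and 0.6 ± 0.0379 on the log2 scale. The family's members are alike in sequence, and cross-binding between their probes was not tested.

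Cyp1a2, a P450 induced through the receptor AHR and also by CAR, rose 5.32-fold, from 2.86 ± 0.14 to 5.27 ± 0.305. Cyp1a1, the most AHR-dependent P450, was at -4.15 ± 0.271 in control and -4.44 ± 0.426 in DDE_PXM and was not called (adjusted p = 0.31); it was well above background on 3 of 4 arrays in each group, its sign turned under 4 other scalings, and with normexp it was called lower (-0.33, adjusted p = 0.00722).

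Kctd13 and Chil1 stood out among genes outside drug metabolism. Kctd13, an adaptor of a ubiquitin ligase, was at 0.064, -0.075, -0.061 and 0.11 in control and at 6.18, 6.18, 6.26 and 6.1 in DDE_PXM, a 72-fold rise, with DDE at 5.69. This holds for 1 of its 3 probes, which the scanner file ties to a transcript of its own. The probe 14.7 kb away was at -3.5 in control and -3.11 in DDE_PXM, and the probe between them was above background on no control or DDE_PXM array. Chil1, a chitinase-like protein secreted by inflamed tissue, was at -2.05 ± 0.204 in control, 3.68 ± 0.0629 in DDE and 2.53 ± 0.0882 in DDE_PXM, so that it was 23.8-fold above control and below DDE by 1.15 ± 0.0898 on the log2 scale (adjusted p = 1.49e-06).

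Conjugating enzymes rose more often than they fell. Of 21 glutathione S-transferases 14 rose and 4 fell, with a median of 0.46, against 15 and 0 in DDE. Gstm4 was at 3.98, 3.99, 4.06 and 4.35 in control and at 6.25, 6.49, 6.45 and 6.51 in DDE_PXM, a 5.04-fold rise, and Gstm6 rose 4.48-fold. Both were above DDE, by 0.53 ± 0.0901 and 0.51 ± 0.0627. Gstm1 rose 1.9-fold and did not pass against DDE (-0.0077 ± 0.0556, adjusted p = 0.92). That probe is placed on chromosome 5, those of Gstm4 and Gstm6 on chromosome 3. A dimmer Gstm1 probe rose more, by 1.92 on the log2 scale, from 6.65 in control to 8.57, with DDE at 8.35. A dimmer Gstm6 probe rose less, by 0.8, from 1.22 to 2.03. Cross-binding between the probes of these genes was not tested. Of 17 glucuronosyl- and sulfotransferases tested out of 24, 12 rose and 3 fell. Ugt2b35, which attaches glucuronic acid, rose 11-fold, from 0.17 ± 0.149 to 3.63 ± 0.0258, and the sulfotransferase Sult2a8 fell 2.4-fold.

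Of 30 genes under NRF2 or in glutathione synthesis 20 rose and 5 fell, with a median of 0.49, and in DDE 23 rose and 2 fell, with a median of 0.45. Aox1, aldehyde oxidase, was at 4.73, 4.78, 4.66 and 4.71 in control and at 6.82, 6.84, 6.74 and 6.9 in DDE_PXM, a 4.29-fold rise. The subunits of the enzyme that starts glutathione synthesis rose, Gclm 3.71-fold and Gclc 2.16-fold, and so did glutathione reductase (Gsr, 2.09-fold). All 4 were also above DDE, by 0.6 ± 0.0449, 0.4 ± 0.0516, 0.32 ± 0.0849 and 0.37 ± 0.0371. Txnrd1, thioredoxin reductase, rose 1.51-fold. Nqo1, a quinone reductase often used as the NRF2 marker, changed by 0.11 ± 0.0481 and was not called (adjusted p = 0.0695). It was called with median centring (0.48, adjusted p = 9.06e-06), with normexp (0.14, adjusted p = 0.0148) and without control replicate 1 (0.14, adjusted p = 0.0256). Hmox1, heme oxygenase, varied widely, with 1.32, 3.33, 3.48 and 3.18 in control and 3.26, 2.42, 3.3 and 1.11 in DDE_PXM, and was not called (adjusted p = 0.693). Antioxidant enzymes moved both ways: of 21 tested 6 rose and 10 fell, so that 76.2% were called against 70.9% of all genes. Their median was -0.12 and ranged from -0.094 to 0.25 under the other scalings, and against DDE 2 were higher and 10 lower.

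Enzymes of fat synthesis rose in DDE_PXM, where DDE alone had lowered several. Of 30 genes tested 22 rose and 5 fell, with a median of 0.74. In DDE against control 6 rose and 13 fell, with a median of -0.15, and between DDE_PXM and DDE 25 were higher and 2 lower, with a median of 0.85. Acly, which makes the acetyl-CoA for fat and cholesterol, was at 6.16, 6.09, 6.02 and 5.92 in control and at 7.4, 7.32, 7.32 and 7.33 in DDE_PXM, a 2.45-fold rise (adjusted p = 2.2e-09). DDE was below both, at 5.36 ± 0.0409, and a second probe of Acly moved the same way, from -1.03 in control and -1.7 in DDE to 0.54.

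The steps after Acly followed. Acaca, which makes malonyl-CoA, rose 2.1-fold, and Acss2, which makes acetyl-CoA from acetate, rose 1.99-fold. Acss2 has 3 dimmer probes, of which 1 rose (from 2.1 to 3.53) and 1 fell (from -2.66 to -3.99, adjusted p = 1.88e-05), and the mean of its probes rose by 0.2. Fasn, the fatty acid synthase, was at 7.11 ± 0.0191 in control (n = 2, since 2 spots were marked as outliers), 6.7 ± 0.0618 in DDE and 8.47 ± 0.0471 in DDE_PXM, a 2.56-fold rise. Scd1, which puts a double bond into fatty acids, rose 1.62-fold and Srebf1, the gene of SREBP1, 1.56-fold. For Acly, Acss2, Fasn, Scd1 and Srebf1 the order was DDE, control, DDE_PXM, and both steps passed the test. Elovl3, an elongase, and Lpin1, a phosphatidate phosphatase, fell instead, by 2.42-fold and 1.71-fold. Adipocytes use the same enzymes, and their markers fell from control to DDE_PXM, with a mean of 0.5 to 0.64 on the control arrays, -0.51 to -0.43 in DDE and -0.045 to 0.027 in DDE_PXM. Their part in these values was not tested.

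NADPH, which fat synthesis and glutathione reduction consume, is supplied by enzymes that rose too. Of 16 tested 12 rose and 2 fell, with a median of 0.47. Malic enzyme, Me1, was at 4.62, 4.62, 4.6 and 4.63 in control and at 6.23, 6.25, 6.14 and 6.24 in DDE_PXM, a 3.03-fold rise, with DDE between them at 4.96 ± 0.0508. The pentose phosphate enzyme Pgd rose 3.02-fold and Taldo1 1.65-fold (log2 change 0.72, but 0.37 to 0.45 without control replicate 4, DDE_PXM replicate 2 or DDE_PXM replicate 4), and Idh1 rose 1.77-fold. A dimmer Idh1 probe, at -2.08 in control and -1.97 in DDE_PXM, was not called (0.11, adjusted p = 0.697). Me1, Pgd and Taldo1 are on both this list and the NRF2 list, and Me1 also on that of fat synthesis, so these counts are not separate.

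Cholesterol genes rose nearly throughout. Of 26 tested 23 rose and 1 fell, with a median of 0.59, against 15 and 5 with a median of 0.17 in DDE. Dhcr7, the last step to cholesterol, was at 3.27, 3.22, 3.21 and 3.41 in control and at 4.43, 4.67, 4.61 and 4.47 in DDE_PXM, a 2.41-fold rise, and Sqle, squalene epoxidase, rose 1.42-fold. Idi1, an enzyme of the isoprenoid branch, was the member that fell, by 1.34-fold, a call lost with median centring (-0.044, adjusted p = 0.612). It was lost as well in the deposited values, at -0.13 (adjusted p = 0.101), and under the RMA-like scaling, at -0.14 (adjusted p = 0.0838). The factor Srebf2 rose 1.33-fold. Npc1l1, which takes up cholesterol from bile, rose 3.43-fold, from 0.22 ± 0.0577 to 2 ± 0.0741.

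**Figure D4:**
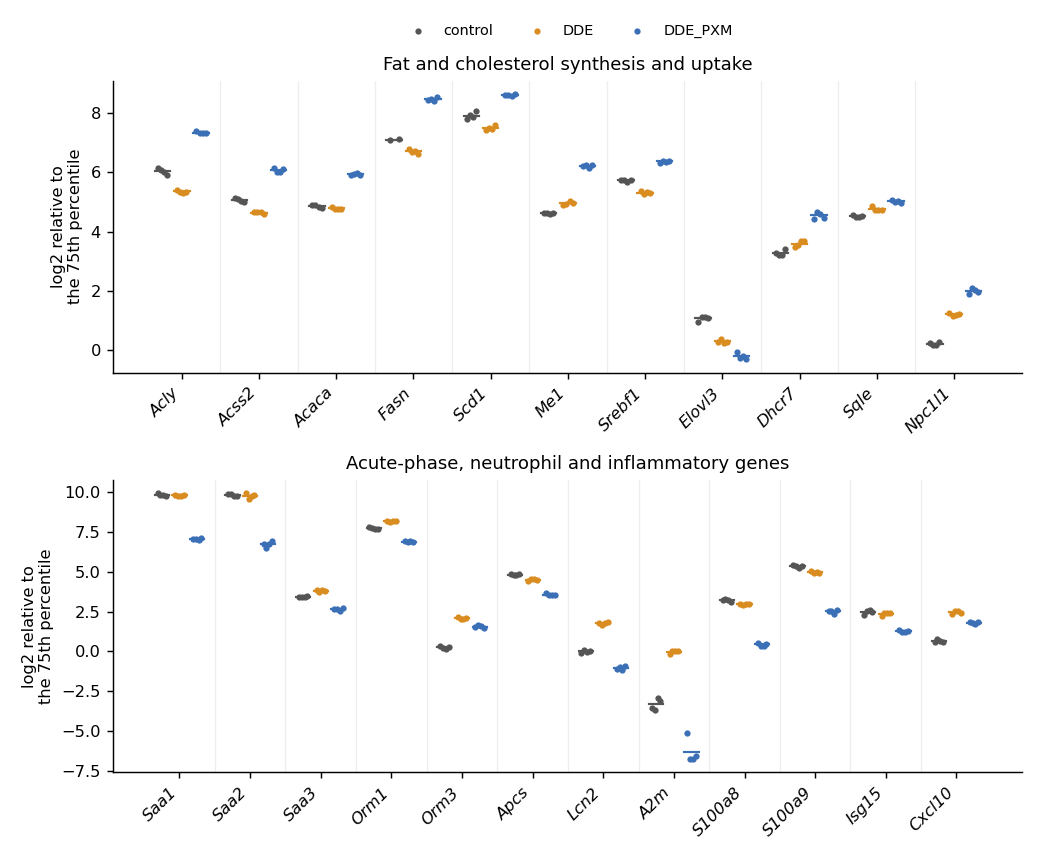
Level on each array (vertical, log2 relative to the 75th percentile) of genes of fat and cholesterol metabolism (upper panel) and of acute-phase, neutrophil and inflammatory genes (lower panel), with bars at the group means. Acly, Acss2, Fasn, Scd1 and Srebf1 are lowest in DDE and highest in DDE_PXM, and Saa1 and Saa2 are alike in control and DDE and lower in DDE_PXM.

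Of 37 genes of glycolysis, gluconeogenesis and fructose use 16 rose and 9 fell, so that 67.6% were called against 70.9% of all genes, with a median of 0.09 (0.13 to 0.46 under the other scalings). Tkfc, which phosphorylates glyceraldehyde from fructose, was at 3.62, 3.67, 3.55 and 3.72 in control and at 4.78, 4.93, 4.82 and 5.04 in DDE_PXM, a 2.39-fold rise. Pklr, pyruvate kinase of the liver and a ChREBP target, rose 2.26-fold. For both the change from control to DDE did not pass (0.024 with adjusted p = 0.831 and -0.036 with adjusted p = 0.749), and the change from DDE to DDE_PXM did (1.23 ± 0.0824 and 1.21 ± 0.0846). Gpi1 rose 1.88-fold. Pdk4, which shuts pyruvate dehydrogenase in fasting, fell 2.42-fold.

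Fatty acid oxidation did not move one way. Of 44 genes of oxidation and targets of PPARA 9 rose and 17 fell, so that 59.1% were called against 70.9% of all genes. Their median was -0.087 and ranged from -0.027 to 0.29 under the other scalings. In DDE 18 rose and 6 fell, and between DDE_PXM and DDE 2 were higher and 23 lower, with a median of -0.22. The PPARA targets Acot1 and Cyp4a14 fell 1.67-fold and 2.01-fold, whereas Cyp4a12a rose 2.74-fold. Cpt1b, the muscle form of carnitine palmitoyltransferase, fell 2.66-fold, in arrays where all 20 muscle markers fell.

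Of 29 genes of bile acid synthesis and transport 8 rose and 14 fell, so that 75.9% were called against 70.9% of all genes. Their median was -0.18 and ranged from -0.15 to 0.19 under the other scalings. Cyp7a1, which starts the making of bile acids, fell 1.2-fold and was at 0.11 with median centring. Nr0b2, the repressor of Cyp7a1, rose 1.7-fold and the bile salt export pump Abcb11 1.51-fold. The bile acid uptake carrier Slc10a1 was at 8.82 ± 0.0479 in control, 8.32 ± 0.0928 in DDE and 7.94 ± 0.0777 in DDE_PXM, a 1.83-fold fall. A second Slc10a1 probe rose instead, from 6.22 in control to 6.69 (adjusted p = 5.88e-05), and the mean of its probes changed by -0.2. The basolateral exporter subunit Slc51b fell 2.18-fold. Outside the list, the pericentral enzyme Oat, ornithine aminotransferase, fell 2.89-fold.

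Serum amyloid A fell sharply. Saa1 was at 9.94, 9.86, 9.81 and 9.8 in control and at 7.04, 7.05, 7.02 and 7.13 in DDE_PXM, a 6.94-fold fall (adjusted p = 2.02e-12), and Saa2 fell 8.59-fold. DDE was at 9.81 and 9.79, so both genes were high in control and DDE and lower in DDE_PXM without overlap. The fall was seen on both probes shown above. Whether each probe also binds the transcript of the other gene was not tested, so the falls may not be separate readings.

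Several other acute-phase genes were raised in DDE and below control in DDE_PXM. Lcn2, lipocalin of hepatocytes and neutrophils, was at -0.0039 ± 0.0743 in control, 1.78 ± 0.0652 in DDE and -1.03 ± 0.11 in DDE_PXM. Orm1, orosomucoid, went from 7.74 in control and 8.19 in DDE to 6.91, and Saa3 from 3.43 and 3.82 to 2.65. For Lcn2, Orm1 and Saa3 both the rise in DDE and the fall below control in DDE_PXM passed the test. A2m, a protease inhibitor, was at -3.33 ± 0.359 in control and -0.012 ± 0.09 in DDE, and was not well above background on any DDE_PXM array, at least 3-fold below control. Apcs and Orm3 were exceptions. Apcs, serum amyloid P, was already lower in DDE, at 4.81 in control, 4.5 in DDE and 3.58 in DDE_PXM, a 2.36-fold fall. Orm3 rose 2.46-fold, from 0.25 to 1.55, with DDE at 2.09.

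Over the whole acute-phase list 8 of 30 genes rose and 15 fell, so that 76.7% were called against 70.9% of all genes. The median was -0.25 and ranged from -0.2 to 0.12 under the other scalings. In DDE against control 14 rose and 5 fell, and between DDE_PXM and DDE 2 were higher and 21 lower, with a median of -0.37.

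Neutrophil genes fell with them. Of 13 neutrophil markers tested out of 17, 12 fell and none rose, 8 of them at least 2-fold, with a median of -1.18 (-0.99 to -0.73 under the other scalings). In DDE 2 rose and 6 fell, with a median of -0.16. S100a8 was at 3.26, 3.28, 3.26 and 3.11 in control and at 0.56, 0.37, 0.37 and 0.44 in DDE_PXM, a 6.93-fold fall, and S100a9, its partner in calprotectin, fell 7.14-fold. Prtn3, a granule protease, fell 20.4-fold. DDE was below control by 0.26 on the log2 scale for S100a8 and by 0.38 for S100a9, which passed the test, and lay between the groups for Prtn3 (-1.04). In bulk tissue, fewer cells of a type and less RNA per cell cannot be told apart.

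Markers of several other blood and immune cells were lower as well. Of 17 Kupffer cell and macrophage markers 16 fell and none rose, with a median of -0.63, among them the Kupffer cell lectin Clec4f (1.52-fold), Cd5l (1.64-fold) and lysozyme (Lyz2, 2.4-fold). Monocyte markers were mixed: of 10 tested 2 rose and 5 fell, so that 70% were called against 70.9% of all genes. Their median was -0.3 and ranged from -0.25 to 0.07 under the other scalings, the latter with median centring. Of 16 T and NK cell markers 15 fell and none rose, with a median of -1.01, and Cd3d, a chain of the T cell receptor complex, fell 2.92-fold. Of 9 markers of B cells and plasma cells 7 fell and 1 rose. Jchain, which joins secreted antibodies, fell 6.54-fold and the antibody gene Ighg3 7.48-fold. Of 12 erythroid markers 10 fell and 1 rose, with Hbb-bt, a beta globin, 2.81-fold and Ahsp, the chaperone of alpha globin, 4.95-fold lower. The riser was Alas2, the erythroid form of the first heme enzyme (1.82-fold). For Cd3d, Jchain and Lyz2 DDE lay between control and DDE_PXM, and each step passed the test. In DDE against control 13 Kupffer cell and macrophage markers fell and none rose, with a median of -0.28. Of the T and NK cell markers 11 fell and none rose there, with a median of -0.69.

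More interferon-stimulated genes fell than rose. Of 40 tested 6 rose and 25 fell, with a median of -0.31 (-0.32 to 0.062 under the other scalings), and in DDE 9 rose and 11 fell, with a median of -0.033. Isg15, a ubiquitin-like protein, was at 2.27, 2.53, 2.58 and 2.46 in control and at 1.33, 1.24, 1.21 and 1.31 in DDE_PXM, a 2.28-fold fall, with DDE at 2.37. The antiviral genes Mx1, Mx2 and Oas2 fell 2.19-fold, 2.89-fold and 2.59-fold, and all 4 genes were below DDE by 0.73 to 1.1 on the log2 scale.

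Of 28 cytokines, chemokines and inflammatory signals tested out of 39, 8 rose and 16 fell, with a median of -0.34 (-0.29 to 0.039 under the other scalings). Cxcl10, a chemokine for T cells, rose 2.23-fold and was below DDE by 0.65 ± 0.0575. Il18, an inflammasome cytokine, fell 2.34-fold.

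Genes of protein synthesis fell together. Of 45 cytosolic ribosomal protein genes 42 fell and none rose, with a median of -0.74 that ranged from -0.69 to -0.33 under the other scalings. Rps23 was at 7.26, 7.19, 7.18 and 7.15 in control and at 6.09, 5.99, 6.01 and 6.01 in DDE_PXM, a 2.26-fold fall, with DDE at 6.72 ± 0.0263. In DDE against control 35 fell and none rose, with a median of -0.27, and in DDE_PXM against DDE 41 fell and none rose, with a median of -0.48.

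Of 48 genes of oxidative phosphorylation 34 fell and 7 rose, with a median of -0.37 (-0.34 to 0.0041 under the other scalings, the last with median centring). Both this list and the ribosomal list were bright, with means of 6.77 to 6.87 and 7.29 to 7.41 on the control arrays. Bright genes as a whole leaned lower: of 1794 genes with a mean level above 5, 994 fell and 527 rose, with a median of -0.23. In DDE against control 4 of the 48 genes rose and 25 fell, with a median of -0.2. Cox7b, a small subunit of cytochrome oxidase, fell 2.03-fold. Of 31 proteasome subunits 19 rose and 5 fell, with a median of 0.21, among them the regulatory subunits Psmd2 (1.72-fold) and Psmc4 (1.69-fold). In DDE against control 21 subunits rose and none fell, with a median of 0.22.

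Of 33 genes of the unfolded protein and integrated stress responses 23 rose and 4 fell, with a median of 0.43. In DDE against control 22 rose and 2 fell, with a median of 0.26. Syvn1, the ligase of endoplasmic reticulum degradation, rose 2.03-fold, and was above DDE by 0.44 ± 0.042. Acinar cells carry much of this machinery, and their marker list rose in the same arrays (2.86 to 2.91 in control against 4.91 to 4.95), and its part in these rises was not tested. Gdf15, a stress hormone, was at 2.69 in control, 4.25 in DDE and 3.41 in DDE_PXM, and Chac1, which breaks down glutathione, fell 3.11-fold. The heat shock gene Hspa1a rose 2.23-fold, from -0.78 to 0.38, with DDE at -1.39.

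The metallothioneins Mt1 and Mt2 fell. Mt1 was at 5.63, 5.71, 5.68 and 5.76 in control and at 4.51, 4.68, 4.57 and 4.59 in DDE_PXM, a 2.16-fold fall, and Mt2 fell 2.69-fold. Both were slightly higher in DDE than in control, at 5.88 and 5.32. Tfrc, the transferrin receptor, rose 3.31-fold. Of 28 p53 targets and senescence genes 6 rose and 13 fell, so that 67.9% were called against 70.9% of all genes. Their median was -0.054 and ranged from -0.093 to 0.32 under the other scalings, the latter with median centring. Cdkn1a, the p53 target p21, fell 1.98-fold, and Cdkn2a, the senescence marker p16, was at -0.3 ± 0.121 in control, -0.62 ± 0.119 in DDE and -2.03 ± 0.0946 in DDE_PXM, a 3.32-fold fall. Of 33 cell cycle genes tested out of 40, 3 rose and 19 fell, so that 66.7% were called against 70.9% of all genes. Their median was -0.28 (-0.28 to 0.091 under the other scalings), and Rrm2, a subunit of ribonucleotide reductase, fell 1.77-fold. In DDE against control 8 of the cell cycle genes rose and 2 fell, with a median of 0.12.

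Of 19 circadian clock genes 9 rose and 6 fell, 78.9% of them being called against 70.9% of all genes, with a median of 0.053 that was -0.05 over the mean of the probes. The clock output gene Dbp rose 1.76-fold and Nr1d1, a repressor of the clock, 2.18-fold, while Arntl (Bmal1), which Nr1d1 represses, fell 1.73-fold. The hours of sampling were not given in the labels. Of 27 liver genes known to be higher in females 20 fell and 5 rose, 11 of them falling at least 2-fold, with a median of -0.59, although all mice were male. In DDE against control 14 of these genes fell and 5 rose, with a median of -0.31. Slc22a26, an organic anion transporter, was at 0.035, -0.0015, -0.051 and 0.011 in control, -1.23 ± 0.0994 in DDE and -2.82, -2.58, -2.54 and -2.43 in DDE_PXM, a 6.01-fold fall. Sult2a2 was at least 9.26-fold and Atp6v0d2 at least 3.2-fold lower.

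Of 27 liver genes known to be higher in males 11 rose and 11 fell, with a median of 0.045 (-0.016 to 0.42 under the other scalings). Hsd3b5, a male-specific steroid reductase, was at 0.96, 0.86, 0.89 and 0.86 in control and at -3.5, -3.54, -3.32 and -2.81 in DDE_PXM, an 18.2-fold fall, with DDE at -1.37. Cyp4a12a, Cyp4a12b and Cyp2d9, P450 enzymes of the same list, rose 2.74-fold, 2.84-fold and 2.65-fold. The male list thus moved both ways evenly, whereas the female list moved mostly down, with a median below 0 under all other scalings (-0.52 to -0.22). Cyp2b9, on the female list, was still among the largest rises.

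**Figure D5:**
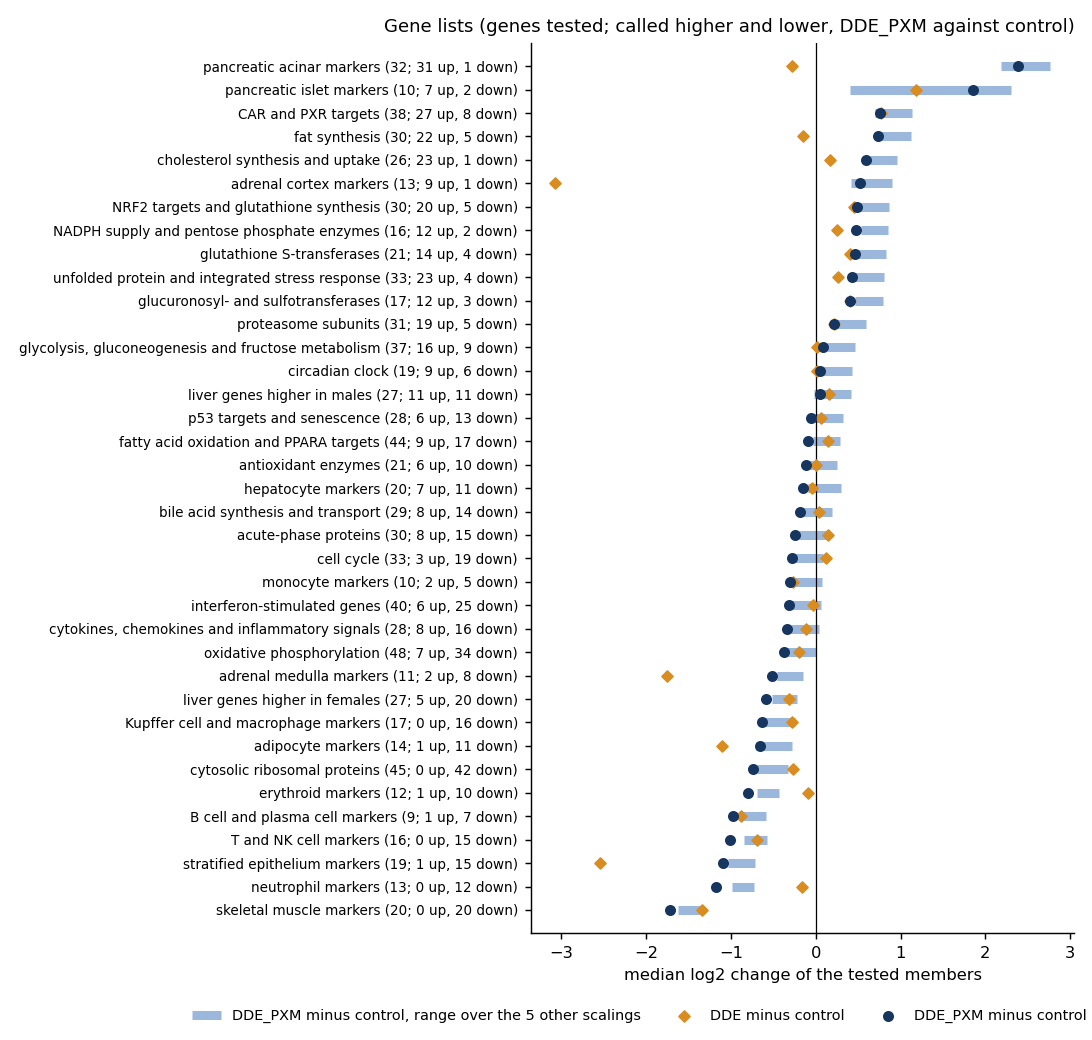
Median log2 change of the tested members of 37 gene lists (horizontal), for DDE_PXM minus control (dark circles, with a bar for the range over 5 other scalings) and DDE minus control (orange diamonds), which share their controls. Fat synthesis stands at 0.74 against -0.15, neutrophil markers at -1.18 against -0.16, and CAR and PXR targets at 0.76 against 0.77.

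Among the other large falls, Igfbp2, which binds insulin-like growth factors, was at 2.93 ± 0.102 in control, 1.36 ± 0.0957 in DDE and -0.32 ± 0.105 in DDE_PXM, a 9.55-fold fall. Rtkn2 fell 10.5-fold, and adenosine deaminase, Ada, fell 7.07-fold, with DDE at 0.42 between 2.47 and -0.35. Krtdap and Lor, of the outer layers of skin and oral epithelium, fell 28.2-fold and 13.6-fold, and Bpifa5 13.7-fold. The size for Krtdap depended on the probe. Its brightest probe fell by 4.82 on the log2 scale, and its other kept probes by 7.71 and 7.75, to -6.93 and -6.83 in DDE_PXM. Calm4 and Asprv1 were at least 26.6-fold and at least 15.8-fold lower. Albumin, Alb, fell 1.24-fold, from 9.97 ± 0.1 to 9.65 ± 0.0852, and its sign turned with median centring, the RMA-like setting and the deposited values; of all 20 hepatocyte markers 7 rose and 11 fell, with a median of -0.15 (-0.09 to 0.3 under the other scalings).

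The arrays lay on 5 slides, each of which was its own scan pass, and 3 slides held both groups. Within those 3 slides 99.3% to 99.6% of called genes differed in the same direction, which the calls drew on the same arrays to find. Cyp2b10 differed by 6.31 to 6.44 within slides, Acly by 1.23 to 1.4, Saa1 by -2.85 to -2.75 and Pnlip by 2.42 to 2.51. Of 6087 further probes of called genes, 77% moved the way of the brightest probe and 12.8% were called the opposite way, in 678 genes.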

How the data were processed

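The deposited scanner files hold 1 intensity per spot and array, made by the authors, per the file headers, with Agilent Feature Extraction 11.5.1.1 and its detrending, and the submitters' processing notes also name RMA and limma without order. The authors' deposited log2 values of the same arrays served as an alternative. The columns correlated with the log2 processed signal at 0.9949 to 0.9964, their medians were 5.3243 to 5.3479, and the sources used here do not give their exact steps or centring.

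Here log2 processed signal minus the array's log2 75th percentile over non-control spots was used, with 102 to 177 outlier spots per array left out and spots of a probe averaged. Of 56605 probes, 27098 were kept, those well above background throughout 1 group or more, and the brightest stood for each of 18678 genes. limma 3.58.1 (R 4.3.3, data.table version 1.17.8) was fitted to all 12 arrays with group as the only term (9 residual degrees of freedom), with eBayes and Benjamini-Hochberg adjustment over all genes, and was tested on simulated data. Folds written "at least" compare the brighter group with the higher of the dim probe's value and the lowest value well above background. Probes and mm9 positions are those of the files. Exons were not annotated here, and mismatches of Mus spretus with the probes were not checked.

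The comparison, the 52 gene lists (33 pathways, 19 cell types) and the tests were chosen with earlier results of these data known. The text names genes from a rule: the 12 largest changes per direction among genes measured above background on every array, the 8 largest whatever their background, up to 6 members of each list with the smallest p, all members of the 12 lists with the largest called share, and a set of genes named whatever their values. Of 502 such genes the text names some, chosen after their values were seen, and describes 37 of the lists. Alternatives were quantile normalisation, median centring, normexp (offset 50), normexp with quantile normalisation (RMA-like), the deposited values, other filters on dim signals, averaging over probes, a trend, array weights, the 8 arrays alone, a block for replicate number or for slide, keeping outlier spots, and leaving out each array. Some genes are not reported here.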

Additional observations from a re-analysis of the deposited data

Results flagged for a closer look

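In 11 of 282 sets of 4 arrays tested, 1 array lay far from the other 3, by Dixon's test at the 95% level, which chance passes in about 1 in 20 sets. Hmox1 was at 1.32 in control replicate 1 against 3.18 to 3.48 in the others. A2m was at -5.14 in DDE_PXM replicate 1 against -6.76 to -6.56, all below background, and Rtkn2 was at -3.53 in the same array against -4.48 to -4.39. Apcs (3.68) and Acly (7.4) were also highest in DDE_PXM replicate 1. Abcb1a was at 1.76 in DDE_PXM replicate 4 and Aqp12 at -0.39 in DDE_PXM replicate 3. In control, Ctrl was at 1.71 and S100a8 at 3.11 in replicate 4, Elovl3 at 0.94 in replicate 1 and Srebf1 at 5.66 in replicate 3.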

How the results depend on the processing

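Of 142 genes named, 135 kept their direction and their side of the threshold under all 22 alternatives fitted to them, and the exceptions were Alb, Cyp1a1, Cyp7a1, Dbh, Hmox1, Idi1 and Nqo1. Counts moved with the scaling. Median centring gave 10315 genes higher and 3802 lower, and 1619 and 760 at 2-fold. At 2-fold, quantile normalisation gave 759 higher, normexp 250 higher and 858 lower, the RMA-like setting 606 lower and the deposited values 719 higher and 1155 lower. Without a filter on dim probes 16031 genes were lower, 2760 of them at least 2-fold. Leaving out 1 array gave 5577 to 5801 higher and 7004 to 7308 lower, and 438 to 485 and 1687 to 1840 at 2-fold. The replicate numbers did not pair the arrays (correlations -0.016, -0.09, 0.13 and 0.093), and with the replicate number as a block 5751 genes were higher and 7186 lower. The change of a called gene moved by over 1.5 times with the RMA-like setting (6 genes larger, 25 smaller) and with median centring (10 and 18). Over the mean of the probes it did so for 4 and 4, among them Kctd13 (3.28), Idh1 (0.47), Alas1 (1.33), Gstm1 (1.42), Srebf2 (0.66) and Cyp7a1 (-0.49). The cause of these shifts was not tested.

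Signs turned as follows. With median centring Alb was at 0.06, Cyp1a1 at 0.086, Cyp7a1 at 0.11 and Hmox1 at 0.07, and over arrays left out in turn Hmox1 ranged from -0.81 to 0.17, the latter without DDE_PXM replicate 4. Cyp1a1 was at 0.089 with quantile normalisation, 0.0094 with the RMA-like setting and 0.11 in the deposited values. Alb was at 0.068 with the RMA-like setting and 0.052 in the deposited values. The median of the oxidation and PPARA list was 0.19 (quantile), 0.29 (median centring), 0.25 (RMA-like) and 0.23 (deposited), that of bile acid genes 0.1, 0.19, 0.089 and 0.12, that of hepatocyte markers 0.3, 0.22, 0.28 and 0.27, and that of antioxidant enzymes 0.14, 0.25, 0.12 and 0.1, in the same order. Median centring put acute-phase genes at 0.12 (0.0041 in the deposited values), cytokines at 0.039, interferon-stimulated genes at 0.062, oxidative phosphorylation at 0.0041, the cell cycle at 0.091, p53 targets at 0.32 and monocyte markers at 0.07, and clock genes were at -0.05 over the mean of the probes. The list higher in males was at -0.016 with normexp, -0.12 without a filter, -0.013 with slide as a block and from -0.03 to 0.055 over arrays left out in turn, the former without DDE_PXM replicate 3.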
